A study of Rattus norvegicus with 16 samples.

Results

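MicroRNA-22 (miR-22) is made from 1 hairpin that gives a mature RNA from each of its arms, miR-22-3p and miR-22-5p. Both were counted by small RNA sequencing in rat amygdala, which serves fear learning, and in rat dorsal raphe, a main source of the brain's serotonin fibres. The 2 rows of that name are taken here out of the 722 mature rat miRNAs listed for each library. They were chosen by their log2 fold changes between 2 rat lines in amygdala, where both arms stood near the top in earlier work on these counts. The line differences are therefore described here without a test.

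The rats were 60 days old and came from high responders and low responders, which are lines selectively bred for strong or weak locomotion in an unfamiliar place. There were 4 libraries each from high responder amygdala, low responder amygdala, high responder dorsal raphe and low responder dorsal raphe, 16 in all. No treatment is given in the labels, which do not state the sex of the animals or whether each sample came from its own rat. P-values therefore measure the spread between these samples. The tissue is bulk, so fewer cells that hold miR-22 and less miR-22 per cell cannot be told apart.

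A miRNA hairpin is cut into a short duplex, 1 strand of which is loaded into an Argonaute protein and guides it to messenger RNAs, mostly by pairing of its seed (bases 2 to 8). The strand that is kept is called the guide, and the other, mostly degraded, the passenger. miR-22-3p is known as the guide of its hairpin and has been studied in heart muscle growth in mice and in blood and tumour cells. In human work on panic disorder miR-22 was reported to repress the serotonin 2C receptor gene HTR2C, the growth factor gene BDNF, the monoamine oxidase gene MAOA and the signalling gene RGS2.

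The mature sequences are shown because the arms have different seeds and so pair with different sites. They are from RefSeq on the rat build GRCr8, 5′ to 3′, with the seed in capitals.
rno-miR-22-3p: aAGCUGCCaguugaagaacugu
rno-miR-22-5p: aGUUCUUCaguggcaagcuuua
The hairpin gene Mir22 lies at chr10:60805331-60805425 on the plus strand of that build, and its sequence follows with both arms in capitals.
Mir22 hairpin: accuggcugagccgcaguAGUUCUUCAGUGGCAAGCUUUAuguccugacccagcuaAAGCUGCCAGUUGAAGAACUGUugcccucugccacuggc
The 5p arm covers bases 19 to 40 and the 3p arm bases 57 to 78 of the 95, with 16 bases between them. In the lowest-energy fold computed with RNAfold, 19 of the 22 bases of the 5p arm were paired with bases of the 3p arm. No RefSeq gene overlaps Mir22 in this annotation, and its neighbours within 50000 bases are Serpinf1, Serpinf2, Wdr81, Mir6326, Tlcd2, Prpf8 and Rilp. Among the 693 rat mature sequences of the table no other shares either seed. The most similar ones, miR-146a-3p for the 3p arm and miR-323-5p for the 5p arm, each differ from their arm at 10 positions when aligned without inner gaps, so near-identical copies that could split the reads were not found there.

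Library totals ran from 1741167 to 8134915 counts. Levels are given as CPM, counts of a miRNA per 1000000 counts of its library, after scaling with TMM factors (trimmed mean of M values), which set the bulk of the miRNAs to a like level in all libraries. Over the 639 miRNAs that passed the filter on low counts, replicate 4 of low responder dorsal raphe and replicate 1 of high responder amygdala stood farthest from their groups, with root mean square deviations of 1.03 and 0.968 on the log2 scale against at most 0.880 in the others. Both have low totals, 2096188 and 1741167 counts. The TMM factor of low responder dorsal raphe replicate 4 was 0.596, which raises its scaled levels. Results that rest on these libraries are given with and without them, except for the sums of marker miRNAs. The deviation of 0.880 is that of high responder amygdala replicate 4, which is kept when both are left out. It holds the highest miR-22-3p level of all 16 libraries (24737 CPM).

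miR-22-3p was an abundant miRNA in all 16 libraries. It ranked from 10 to 31 by count and took a mean of 1.28% of the counts, with 0.940% in high responder dorsal raphe replicate 2 as the lowest share and 2.23% in high responder amygdala replicate 4 as the highest. miR-22-5p ranked from 160 to 234 and took a mean of 0.0169%. Both arms passed the low count filter with counts of 19823 to 140912 for the 3p arm and 132 to 1804 for the 5p arm. In the shallowest library, high responder amygdala replicate 1, the share of miR-22-3p was 1.14% (95% Wilson interval 1.12% to 1.15%) and that of miR-22-5p 0.0159% (0.0141% to 0.0179%). Such intervals cover counting error only.

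In amygdala, both arms stood at higher mean levels in high responders. miR-22-3p had 10552, 14772, 23292 and 24737 CPM in high responder amygdala replicates 1 to 4, against 8127, 9849, 10658 and 10967 CPM in low responder amygdala replicates 1 to 4. Replicate 1 of the high responders lay inside the range of the low responders, and the other 3 lay above it. The means were 18338 ± 6803 CPM in high responders and 9900 ± 1273 CPM in low responders (SD, n = 4 each), so the high responders were also the more spread. The fitted log2 fold change (high over low responders) was 0.89 (SE 0.28), a 1.85-fold higher level.

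The passenger arm gave much the same picture on its own scale. miR-22-5p had 147, 215, 298 and 280 CPM in high responder amygdala replicates 1 to 4, against 92.8, 137, 134 and 121 CPM in low responder amygdala replicates 1 to 4. The 2 groups did not overlap, though the lowest high responder library was close to the highest low responder library. The means were 235 ± 68.5 CPM in high responders and 121 ± 20.3 CPM in low responders (SD, n = 4 each). The fitted log2 fold change was 0.96 (SE 0.28), a 1.94-fold higher level. Without both libraries that stand apart the log2 fold change was 1.05 (SE 0.19) for miR-22-3p and 1.10 (SE 0.18) for miR-22-5p. This setting was chosen after seeing the data. It drops the lowest high responder amygdala library of both arms and keeps replicate 4, the highest for miR-22-3p.

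As shares of unscaled counts, both arms were without overlap between the lines in amygdala. miR-22-3p took 1.14% to 2.23% of the counts in high responders and 0.947% to 1.06% in low responders, and miR-22-5p took 0.0159% to 0.0260% in high responders and 0.0108% to 0.0147% in low responders. The overlap of the 3p arm thus depends on the scaling. On the TMM scale 5.01% of the 639 miRNAs were higher in high responder amygdala without overlap, and by share of counts 3.6% were. edgeR called 0% of the 639 miRNAs in this comparison (0 calls, and 65 with an unadjusted p below 0.05), and DESeq2 called 20. The median log2 fold change of all miRNAs was 0.07, and 93.3% of them lay below miR-22-3p and 95.1% below miR-22-5p. These figures describe the contrast that chose the arms.

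**Figure D1:**
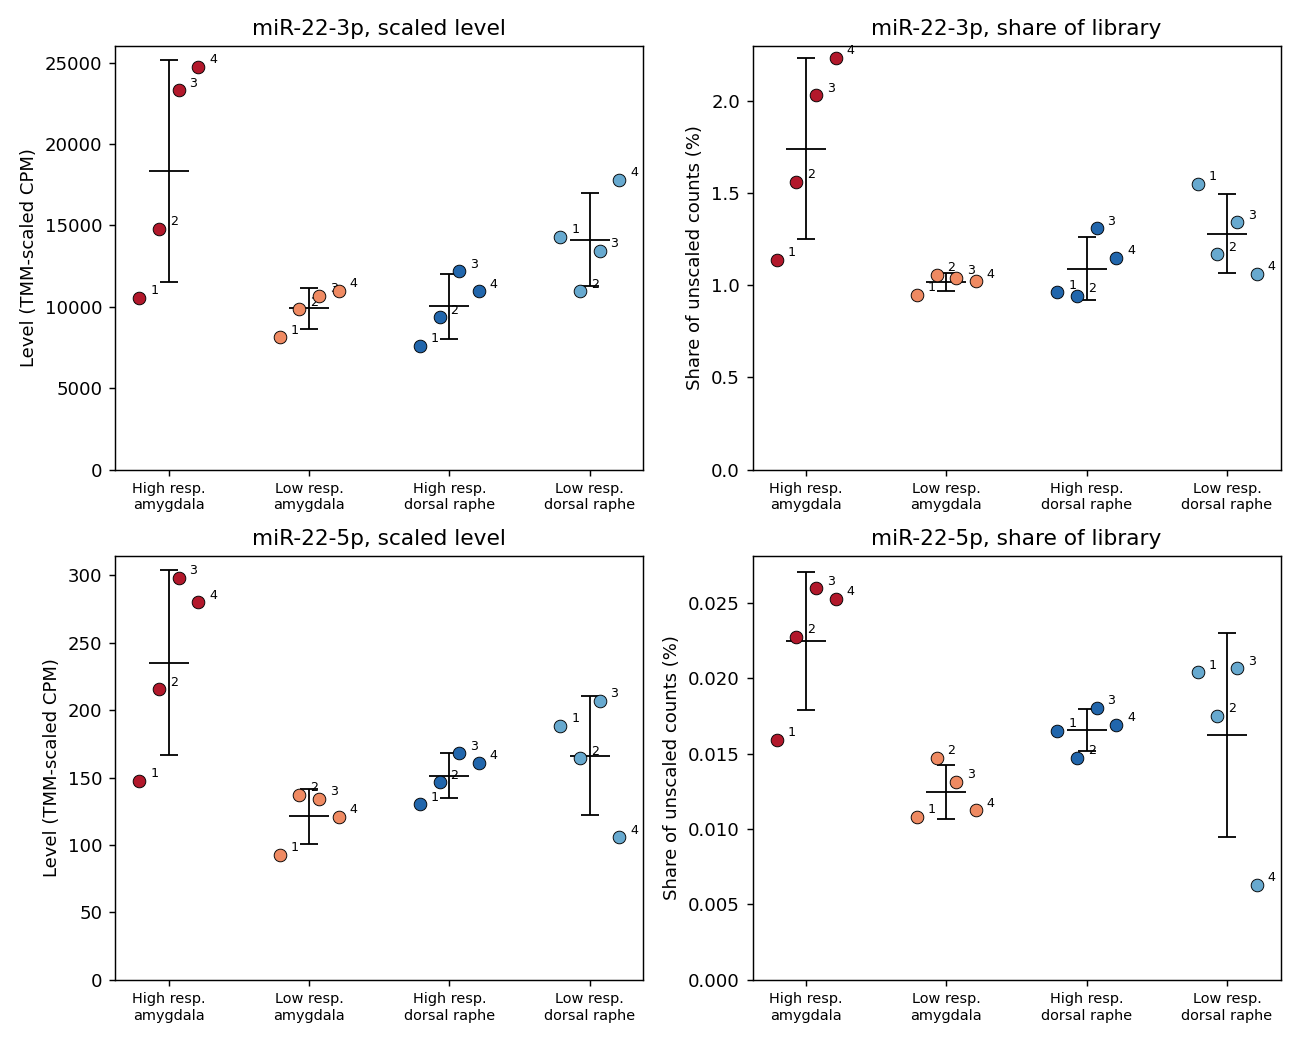
Levels of miR-22-3p (top) and miR-22-5p (bottom) in the 16 libraries as TMM-scaled CPM (left) and as percent of unscaled counts (right). Points are libraries with their replicate number, and bars are the group mean and SD (n = 4). High responder amygdala stands highest on both scales, with replicate 1 the lowest of its group, and low responder dorsal raphe replicate 4 has the highest scaled miR-22-3p level of its group (17806 CPM) and the lowest share (1.06%).

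In dorsal raphe the lines overlapped for both arms, where 4.23% of all miRNAs were without overlap in either direction. miR-22-3p had 7591, 9355, 12173 and 10944 CPM in high responder dorsal raphe replicates 1 to 4, against 14304, 10945, 13448 and 17806 CPM in low responder dorsal raphe replicates 1 to 4. The means were 10016 ± 1986 CPM in high responders and 14126 ± 2837 CPM in low responders (SD, n = 4 each), and the log2 fold change was -0.50 (SE 0.28). The highest low responder value is that of replicate 4, whose unscaled share of 1.06% was the lowest of its group. Without this library the log2 fold change was -0.24 (SE 0.27).

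miR-22-5p had 130, 147, 168 and 161 CPM in high responder dorsal raphe replicates 1 to 4, against 188, 164, 207 and 106 CPM in low responder dorsal raphe replicates 1 to 4. Here low responder replicate 4 was the lowest library of all 8, and the other 3 low responder libraries lay at or above the middle of the high responders. The means were 151 ± 16.8 CPM in high responders and 166 ± 44.0 CPM in low responders (SD, n = 4 each). The log2 fold change was -0.14 (SE 0.28), with -0.17 (SE 0.26) without low responder replicate 4, 0.03 (SE 0.31) with library totals as the scaling and 0.04 (SE 0.32) without low responder replicate 3. Its direction therefore changed with the setting. For the dorsal raphe edgeR called 0% of the 639 miRNAs between the lines (0 calls, and 70 with an unadjusted p below 0.05), and DESeq2 called 0.

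**Figure D2:**
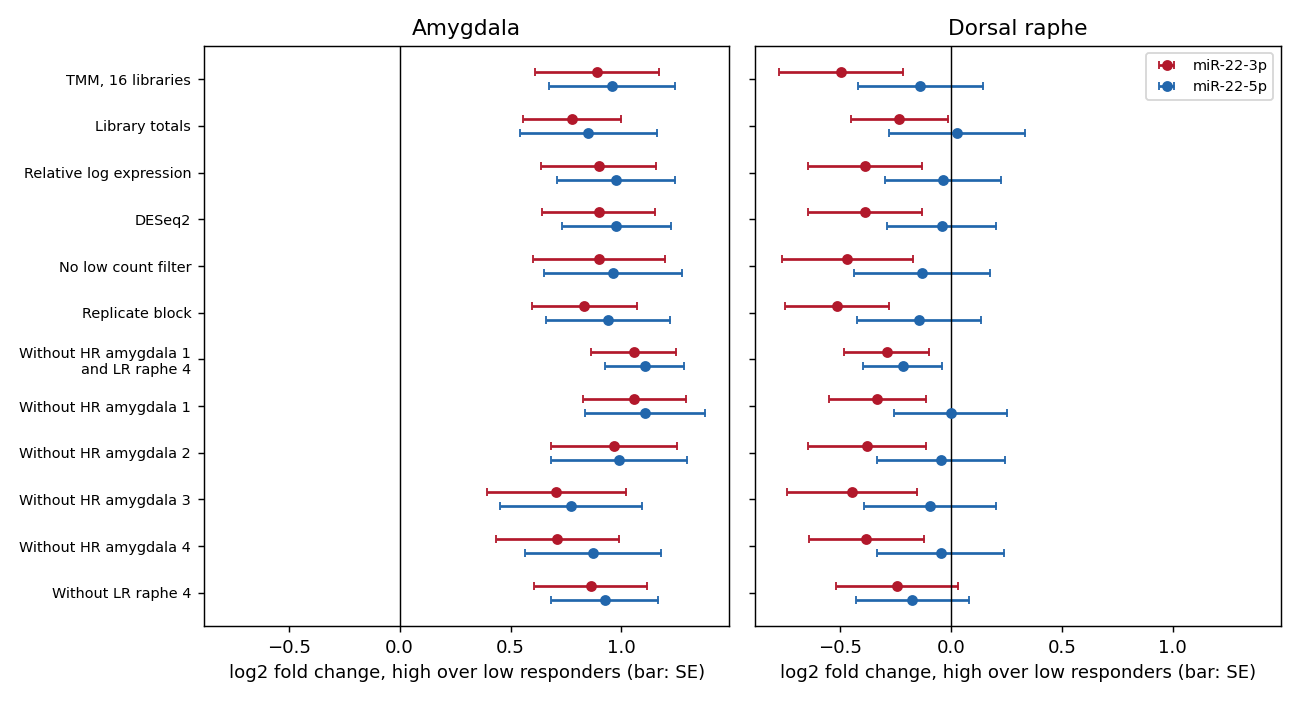
Log2 fold change (high over low responders) of miR-22-3p (red) and miR-22-5p (blue) in amygdala and dorsal raphe under 12 settings. Points are fitted values and bars are SE. In amygdala all values shown lie above 0, from 0.71 to 1.06 for miR-22-3p and from 0.77 to 1.11 for miR-22-5p, while in dorsal raphe miR-22-5p lies on both sides of 0.

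Ordered by mean level, miR-22-3p was highest in high responder amygdala, then in low responder dorsal raphe, high responder dorsal raphe and low responder amygdala. The ranges of each pair of neighbours in this order overlapped. miR-22-5p had the same order, also with overlapping ranges between neighbours. The difference of the line differences (amygdala minus dorsal raphe) was 1.39 (SE 0.39) for miR-22-3p and 1.09 (SE 0.40) for miR-22-5p on the log2 scale. Without both libraries that stand apart it was 1.34 (SE 0.27) for miR-22-3p and 1.32 (SE 0.25) for miR-22-5p. It is given without a test, since it holds the contrast that chose the arms. Of all 639 miRNAs, 90.9% lay below the first value and 87.3% below the second. edgeR called 0% in this interaction, and 81 had an unadjusted p below 0.05, while DESeq2 called 12.

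The comparison of the regions averaged over the lines was not the contrast that chose the arms and was tested. It does use the same 8 amygdala libraries, so its p-values are not fully independent of that choice. miR-22-3p averaged 14119 ± 6393 CPM in amygdala and 12071 ± 3157 CPM in dorsal raphe (SD, n = 8 each). The log2 fold change (amygdala over dorsal raphe) was 0.18 (SE 0.20, adjusted p = 0.504 in edgeR's quasi-likelihood test). miR-22-5p averaged 178 ± 76.8 CPM in amygdala and 159 ± 31.8 CPM in dorsal raphe, with a log2 fold change of 0.09 (SE 0.20, adjusted p = 0.752). Neither arm passed, in a comparison that called 24.3% of all miRNAs. With replicate 1 of high responder amygdala and replicate 4 of low responder dorsal raphe left out, miR-22-3p passed, with a log2 fold change of 0.52 (SE 0.14, adjusted p = 0.00768), and miR-22-5p did not (0.27, SE 0.13, adjusted p = 0.106). This setting was chosen after seeing the data. The 2 libraries held the lowest miR-22-3p level of high responder amygdala (10552 CPM) and the highest of low responder dorsal raphe (17806 CPM). Leaving them out therefore raises the miR-22-3p difference. With 1 library left out at a time, and under the other alternatives, neither arm passed, and adjusted p over all alternatives ran from 0.00768 to 0.650 for miR-22-3p and from 0.106 to 0.922 for miR-22-5p.

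The average covers region differences of opposite sign in the lines. Within high responders the log2 fold change (amygdala over dorsal raphe) was 0.87 (SE 0.28) for miR-22-3p and 0.64 (SE 0.28) for miR-22-5p. Within low responders it was -0.51 (SE 0.28) and -0.46 (SE 0.28). Each within-line value rests on 1 amygdala group mean, which also sets the contrast that chose the arms, and so has no test. Without high responder amygdala replicate 1 and the dorsal raphe library that stands apart, the high responder values were 1.20 (SE 0.19) for miR-22-3p and 0.94 (SE 0.18) for miR-22-5p. The value of miR-22-3p in low responders was -0.27 (SE 0.27) without dorsal raphe replicate 4 and -0.15 (SE 0.19) without that library and high responder amygdala replicate 1.

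The ratio of the arms is taken within a library and needs no scaling between libraries. The 3p arm held the larger count in every library. There were 71.6, 68.6, 78.1 and 88.4 counts of miR-22-3p per count of miR-22-5p in high responder amygdala replicates 1 to 4 and 87.5, 71.8, 79.4 and 90.9 in low responder amygdala replicates 1 to 4. In high responder dorsal raphe replicates 1 to 4 the ratio was 58.3, 63.8, 72.4 and 67.9, and in low responder dorsal raphe replicates 1 to 4 it was 76.0, 66.6, 65.0 and 168. Low responder dorsal raphe replicate 4 stands apart, and the other 15 libraries lie between 58.3 and 90.9. In that library 132 of the reads were miR-22-5p, 0.590% of the reads of both arms (95% Wilson interval 0.498% to 0.700%). Replicates 1 to 3 of its own group had 1.30%, 1.48% and 1.52%, and the mean in high responder dorsal raphe was 1.51%.

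**Figure D3:**
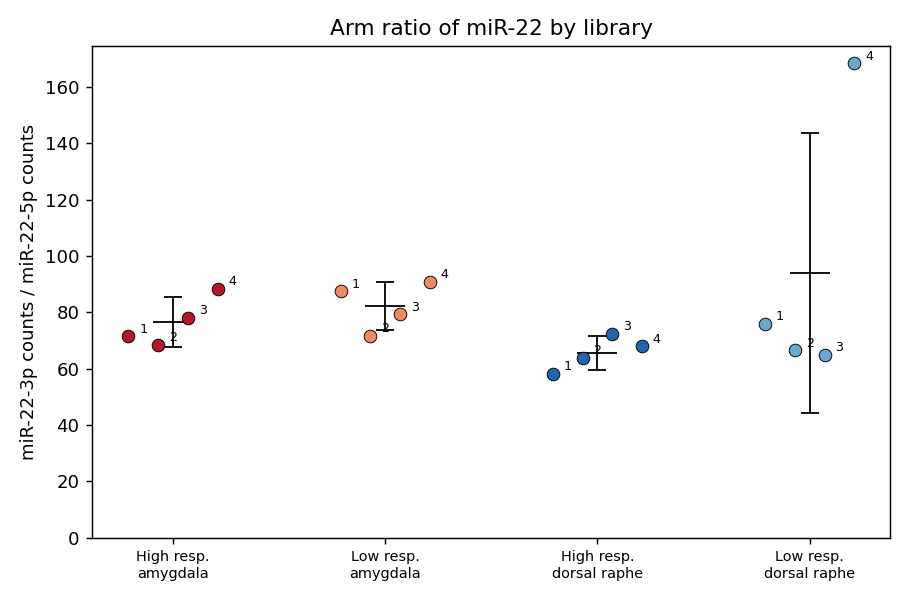
Counts of miR-22-3p per count of miR-22-5p in each library. Points are libraries with their replicate number, and bars are the group mean and SD (n = 4). The ratio is 168 in low responder dorsal raphe replicate 4 and between 58.3 and 90.9 in the other libraries.

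Between the lines the mean log2 ratio was 6.25 ± 0.16 in high responder amygdala and 6.36 ± 0.15 in low responder amygdala (SD, n = 4 each). The difference of -0.10 was smaller than either SD. The high responder library had the lower ratio in 4 of 4 same-numbered pairs, with log2 differences of -0.29, -0.07, -0.02 and -0.04 in replicates 1 to 4. What a number stands for is not stated, so these pairs may not be matched samples. Over 222 hairpins the line difference of the arm ratio in amygdala had a median size of 0.51, and 19 had a smaller one than miR-22. The amygdala values are a description from the contrast that chose the arms. In dorsal raphe the mean log2 ratio was 6.03 ± 0.13 in high responders and 6.43 ± 0.65 in low responders. The difference of -0.40 shrank to -0.08 without low responder replicate 4.

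Between the regions, the mean log2 ratio was 6.31 ± 0.16 in amygdala and 6.23 ± 0.48 in dorsal raphe (SD, n = 8 each). The difference of 0.07 had an exact permutation p of 0.776 (two-sided, region labels exchanged within each line over 4900 arrangements). Without low responder dorsal raphe replicate 4 the geometric mean ratio was 79.1 in amygdala and 66.9 in dorsal raphe, and the log2 difference of 0.24 had an exact permutation p of 0.0102 (2450 arrangements). With high responder amygdala replicate 1 left out as well the difference was 0.25, with an exact permutation p of 0.00980. Within the lines the difference was 0.22 in high responders (exact permutation p = 0.114, n = 4 each, the smallest possible being 0.0286). It was 0.25 in low responders without replicate 4 (exact permutation p = 0.114, 4 against 3 libraries, 35 arrangements). The call therefore rests on whether 1 library is kept. Low responder dorsal raphe replicate 4 was left out after its arm ratio was seen, and the p-values without it take no account of that.

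The arm ratio of miR-22 was set beside that of all 222 hairpins with both arms past the low count filter. The 3p arm was the more abundant in 99 of them, and 40 had more unequal arms than miR-22. The SD of the log2 ratio within groups was 0.35 for miR-22, against a median of 0.73 over the hairpins, and 26 hairpins had a smaller one. Without low responder dorsal raphe replicate 4, a setting chosen after seeing the data, it was 0.15 for miR-22, against a median of 0.61, and 4 hairpins had a smaller one. Among the 39 hairpins with at least 100 counts of both arms in every library the median SD was 0.55 over 16 libraries, with 10 smaller than that of miR-22, and 0 had more unequal arms. Between the regions 2 of 222 hairpins (0.901%) had ratios without overlap, miR-338 and miR-34a, named after their values were seen, and miR-22 was not among them.

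In 3 libraries the arm ratio of many hairpins lay far from that of the other libraries, and that of miR-22 did so in 1 of these. In low responder dorsal raphe replicate 4, the log2 ratio deviated from the median of the other 15 libraries by 1.23 for miR-22 and by a median size of 1.05 over the 222 hairpins, of which 114 deviated by more than 1. Of these, 52 deviated towards the 3p arm and 62 towards the 5p arm. In high responder amygdala replicate 1, 132 hairpins deviated by more than 1, with a median size of 1.29, and miR-22 by -0.02. Only 2 hairpins lay closer to their median there, since 219 deviated more. In high responder amygdala replicate 2, 93 hairpins deviated by more than 1, with a median size of 0.88, and miR-22 by -0.08. The other 13 libraries had 20 to 60 such hairpins. Apart from low responder dorsal raphe replicate 4, the deviation of miR-22 had a size of at most 0.34.

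**Figure D4:**
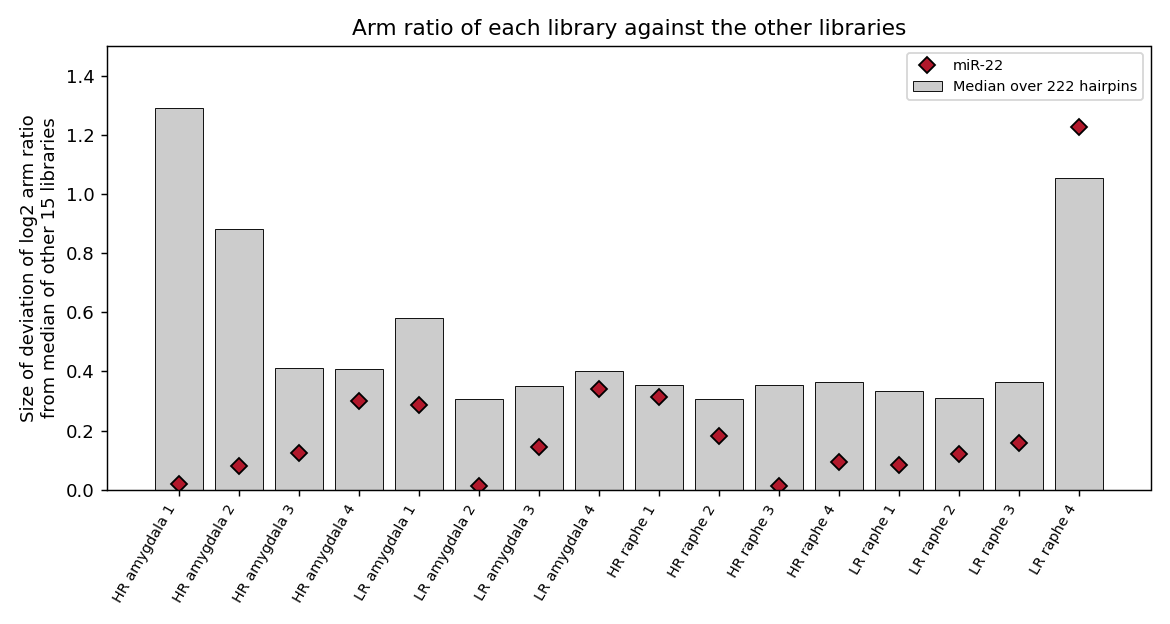
Size of the deviation of the log2 arm ratio of each library from the median of the other 15 libraries, for miR-22 (diamonds) and as the median over 222 hairpins (bars). HR and LR are high and low responders. miR-22 lies above the bar in low responder dorsal raphe replicate 4 (1.23 against 1.05) and close to 0 in high responder amygdala replicate 1.

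Dependence on the library was looked at with values centred on the group means, so that line and region play no part. The level of miR-22-5p went with the log2 of the total count (Pearson r = 0.840, permutation p = 0.00098, adjusted p = 0.00392 over 4 relations; Spearman rho = 0.747, permutation p = 0.00881, adjusted p = 0.0352; n = 16 libraries). Without the 2 libraries farthest from the median total, r was 0.762. For miR-22-3p r was 0.578 (permutation p = 0.088, adjusted p = 0.157; rho = 0.559, permutation p = 0.0773, adjusted p = 0.136), and 0.322 without the 2 farthest libraries. Low responder dorsal raphe replicate 4, with a low total and a high scaled miR-22-3p level, lies off the trend of the others. Without it and high responder amygdala replicate 1 the r of miR-22-3p was 0.807 (permutation p = 0.00872, adjusted p = 0.0174; rho = 0.798, permutation p = 0.00939, adjusted p = 0.0376; r = 0.616 without the 2 farthest). That of miR-22-5p was 0.668 (permutation p = 0.0333, adjusted p = 0.0444; rho = 0.525, permutation p = 0.111, adjusted p = 0.111; r = 0.474 without the 2 farthest), so its rank correlation did not pass there. This setting was chosen after seeing the data and leaves out the library that lies off the trend of miR-22-3p. Its p-values take no account of that choice.

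**Figure D5:**
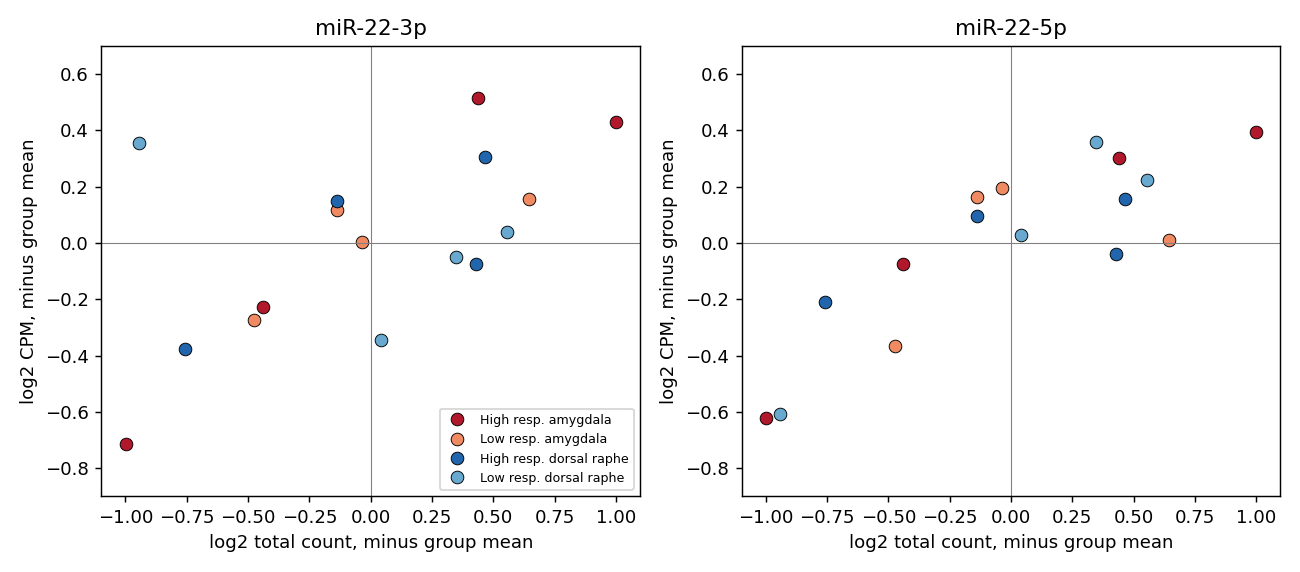
Level (log2 CPM) against log2 total count, both minus their group mean, for miR-22-3p (left) and miR-22-5p (right). Each point is a library, coloured by group. Deeper libraries of a group tend to have more miR-22-5p (r = 0.840), and for miR-22-3p the low responder dorsal raphe library at the upper left lies off the trend.

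The correlation between the levels of the 2 arms did not pass over 16 libraries (r = 0.527, permutation p = 0.118, adjusted p = 0.157; rho = 0.538, permutation p = 0.102, adjusted p = 0.136; r = 0.232 without the 2 libraries of most extreme miR-22-3p level). Without both libraries that stand apart r was 0.854 (permutation p = 0.00268, adjusted p = 0.0107) and rho 0.613 (permutation p = 0.0346, adjusted p = 0.0693), with r = 0.787 without the 2 farthest. This setting was chosen after seeing the data and leaves out the library whose arm ratio stands apart. Its p-values are therefore no test of whether the arms go together. The ratio of the arms and depth gave r of either sign, with r = -0.230 (permutation p = 0.472, adjusted p = 0.472; rho = 0.0647, permutation p = 0.818, adjusted p = 0.818) over 16 libraries and r = 0.562 (permutation p = 0.0983, adjusted p = 0.0983) over 14. In amygdala the totals were 1741167, 2561377, 6949748 and 4713850 counts in high responders and 3742902, 5074420, 4721933 and 8134915 counts in low responders. The line with the higher miR-22 levels thus held the 2 shallowest amygdala libraries, which had the lowest miR-22 levels of their group on both arms. The part of depth in the line difference was not tested.

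The miRNAs most like miR-22-3p by Pearson correlation of centred log2 CPM over the 16 libraries, of 231 others with a mean of at least 100 CPM, were miR-421-3p (r = 0.928), miR-342-3p (0.901), miR-329-3p (0.870), miR-495 (0.865) and miR-132-3p (0.860), the last known to be induced by neuronal activity. Those points share libraries and depth, and the values are a description. miR-22-5p was in place 103 of 231 (r = 0.527). The order rests on the 2 libraries that stand apart. Without them (14 libraries, chosen after seeing the data) the first places went to miR-29c-3p (r = 0.955), miR-29a-3p (0.935), miR-138-5p (0.918), miR-376b-3p (0.914) and miR-154-5p (0.906). miR-342-3p was then in place 6, miR-329-3p in place 14, miR-421-3p in place 19, miR-22-5p in place 21 (0.854), miR-132-3p in place 36 and miR-495 in place 42. None of the 5 first named had a line difference in amygdala as large as that of miR-22-3p: the log2 fold changes were -0.04 for miR-421-3p, -0.41 for miR-342-3p, -0.21 for miR-329-3p, 0.67 for miR-495 and -0.07 for miR-132-3p. Between the regions miR-132-3p rose in amygdala (1.73, SE 0.17, adjusted p = 1.1e-06 in edgeR) and miR-421-3p fell (-0.66, SE 0.20, adjusted p = 0.0227), while the other 3 did not pass.

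Marker miRNAs of cell types show what else differed between the amygdala samples. The summed level of the 6 neuronal miRNAs was 132898 to 152758 CPM in high responder amygdala and 85048 to 121089 CPM in low responder amygdala, without overlap. Of all miRNAs taken singly, 5.01% were higher in high responder amygdala without overlap. The most abundant of the 6 was miR-128-3p, with a mean of 47600 CPM over the 16 libraries, so the sum leans on it. The median line difference of the 6 was -0.25. Of these miRNAs 3 of 6 had positive line differences, 0.68 for miR-128-3p and 0.85 for miR-129-5p among them, while miR-124-3p, the best known neuronal miRNA, stood at -0.65 (miR-129-5p and miR-124-3p were named after their values were seen). Between the regions miR-128-3p (2.23, SE 0.22, adjusted p = 1.1e-06 in edgeR) and miR-218a-5p (0.68, SE 0.20, adjusted p = 0.0172) rose in amygdala, 2 of 6, where 9.39% of all miRNAs were called higher and 14.9% lower. The 6 choroid plexus and ciliated cell miRNAs summed to 12150 to 28652 CPM in high responders and 1325 to 20468 CPM in low responders, with positive line differences for 6 of 6 and a median of 1.30. The 4 leukocyte and microglia miRNAs went the other way, with 304 to 870 CPM in high responders and 847 to 1357 CPM in low responders, and 0 of 4 positive. The part of these cell types in the miR-22 difference was not tested.

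The remaining marker sums, like those of choroid plexus and leukocytes, overlapped between the lines in amygdala. The 6 vascular miRNAs summed to 38490 to 49935 CPM in high responders and 33245 to 41986 CPM in low responders, and the 4 oligodendrocyte miRNAs to 7102 to 11542 CPM in high responders and 4953 to 13588 CPM in low responders. Striated muscle miRNAs, of the tissue type where miR-22 is best known, were at 232 to 366 CPM in high responders and 216 to 402 CPM in low responders, and the 3 erythrocyte miRNAs at 68.1 to 348 CPM in high responders and 108 to 179 CPM in low responders. In dorsal raphe the oligodendrocyte sum was without overlap, with 10263 to 12088 CPM in high responders and 13932 to 40515 CPM in low responders. It leans on miR-219-2-3p (mean 7958 CPM over the 16 libraries), whose line difference there was -1.30. The other members had -0.35 (miR-338-3p), -0.13 (miR-219-5p) and -0.36 (miR-338-5p). Marker sums were not computed without low responder dorsal raphe replicate 4, whose TMM factor was 0.596. The leukocyte and microglia sum was also without overlap in dorsal raphe, with 864 to 1228 CPM in high responders and 1286 to 1372 CPM in low responders. Of all miRNAs taken singly, 4.23% were without overlap there in either direction. The leukocyte and microglia sum leans on miR-150-5p, the only member with a mean of at least 100 CPM over the 16 libraries. Its line difference in dorsal raphe was -0.32. Those of the other members were 0.26 for miR-142-3p, 0.009 for miR-142-5p and -0.008 for miR-223-3p, so the members did not share a direction. The vascular miRNAs were at 43992 to 61016 CPM in high responders and 47068 to 119378 CPM in low responders. Their part in the miR-22 levels there was not tested. Between the regions (amygdala over dorsal raphe) edgeR called 4 of 4 striated muscle miRNAs lower, with a median log2 fold change of -2.52. Of the choroid plexus miRNAs 4 of 6 were called higher (median 1.27). Lower calls were 3 of 4 for oligodendrocyte (median -0.88) and 1 of 4 for leukocyte and microglia miRNAs (-0.32). For vascular and erythrocyte miRNAs there were 0 calls. Over all miRNAs 9.39% were called higher and 14.9% lower. Of the listed markers found in the files, 0 were at 0 in all libraries.

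Of the miRNAs named with miR-22 in the human panic disorder study, 4 of 6 listed arms were in the files, and 0 of these passed between the regions in edgeR, against 24.3% of all miRNAs. Their log2 fold changes (amygdala over dorsal raphe) were 0.37 (SE 0.23) for miR-138-5p, which is known to limit dendritic spine size in rat neurons, 0.28 (SE 0.19) for miR-138-2-3p, 0.21 (SE 0.19) for miR-488-3p and -0.28 (SE 0.26) for miR-488-5p. Line differences in amygdala were negative for 4 of 4, with a median of -0.57.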

How the data were processed

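Small RNA was sequenced from 16 samples, and the authors deposited read counts per mature miRNA, 1 table of 722 rat miRNAs per library. Per the submitters' processing notes, cutadapt 1.3.1, Bowtie2 and bedtools 2.14.2 were used. RNA came from a miRNeasy kit and the libraries were size-selected, per the labels' protocols. For the build, the annotation and the handling of multiply matching reads, settings were not given in the sources used here.

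The counts were analysed as deposited. edgeR's filterByExpr (minimum count 10, minimum total 15) kept 639 miRNAs and dropped 83. Differences were fitted with edgeR 4.0.16 in R 4.3.3 (TMM factors, quasi-likelihood, robust moderation, a mean for each of 4 groups, all 16 libraries), with Benjamini-Hochberg adjustment over all miRNAs tested and a threshold of 0.05. The SE is the size of the log2 fold change over the root of F. log2 CPM uses a prior count of 2. Alternatives were DESeq2 1.42.0, other scalings, no filter, no robust moderation, left-out libraries and a replicate block. Correlations used 100000 permutations within groups, and the arm ratio exact permutation. The fit was tested on simulated counts. The hairpin was folded with RNAfold 2.7.2. Between any 2 libraries chi-square per degree of freedom was at least 55.4, so no library was a copy.

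Replicate numbers 1 to 4 come from the labels. Same-numbered amygdala libraries of high and low responders deviated together from their group means (correlations across miRNAs of 0.69, 0.29, 0.21 and 0.51, all above 0.1), so the numbers were taken to pair them in the replicate block, an alternative to the main fit. Libraries of different number were not compared, so these values cannot show that the numbers pair the samples. In high responders, amygdala and dorsal raphe libraries gave 0.67, -0.27, 0.35 and 0.53, and in low responders -0.29, -0.00088, 0.16 and -0.28. The 2 lines in dorsal raphe gave -0.14 to 0.10, so not all 4 pairs were correlated in any of these comparisons. An alternative for the arm ratio still exchanged region labels within line and number, although these correlations gave no ground for it. A replicate block was also fitted over all 16 libraries. What a number stands for is not stated.

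The members, lists and tests were chosen with earlier results of these data known. Named miRNAs are both arms, the 5 most like miR-22-3p and up to 3 of lowest p of a list. The results of 1 list are not reported here. The tests planned for the region difference within each line were not used for miR-22. Each rests on 1 amygdala group mean, which also sets the contrast that chose it. The averaged region difference shares those amygdala libraries too, and its p-values are given with that limit.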

Additional observations from a re-analysis of the deposited data

Results flagged for a closer look

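The arm ratio of low responder dorsal raphe replicate 4, 168 counts of miR-22-3p per count of miR-22-5p, lay far from the other 3 libraries of its group (65.0 to 76.0). On the log2 scale the gap was 0.836 of the range of the group, against a critical value of 0.829. Of 12 sets of 4 values looked at in this way it was the only one past it, and chance alone would single out about 1 in 20.

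For miR-22-3p every high responder amygdala library lay above the mean of high responder dorsal raphe, and every low responder amygdala library lay below the mean of low responder dorsal raphe. Between the lines, these region differences were 1.31 apart on the log2 CPM scale. Seen from the lines, every high responder library was above the low responder mean in amygdala and below it in dorsal raphe, with the same difference of 1.31. This difference was not tested, since it holds the contrast that led to the choice of miR-22.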

How the results depend on the processing

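The line difference of both arms in amygdala stayed above 0 under all 25 alternatives, with 0.71 to 1.06 for miR-22-3p and 0.77 to 1.11 for miR-22-5p when 1 library was left out. The replicate block gave 0.83 for miR-22-3p and 0.94 for miR-22-5p over 16 libraries, and 0.75 and 0.86 in amygdala alone, and it changed no other call. In the interaction miR-22-3p stood at 1.01 with library totals as the scaling.

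The number of miRNAs called between the lines in amygdala was 2 with library totals, 20 with DESeq2, 9 without both outlying libraries and 0 to 2 with 1 library left out. For the interaction it was 1 with no low count filter, 12 with DESeq2, 3 without both libraries and 0 to 1 with 1 left out. Between the regions it was 136 with DESeq2, 138 without both libraries and 61 to 128 with 1 left out in high responders, and 47 to 94 in low responders.

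Without both libraries, a setting chosen after seeing the data, the averaged region difference of miR-22-3p was 0.52. The arm ratio difference between the regions was 0.25 without both and 0.0066 to 0.24 with 1 left out. The correlations without both were 0.854 between the arms, 0.807 of miR-22-3p with depth and 0.562 of the arm ratio with depth, the last of opposite sign to -0.230 over 16 libraries. The causes were not tested. Counts of miR-22-5p were as low as 132 in low responder dorsal raphe replicate 4 and 277 in the shallowest library, high responder amygdala replicate 1, which limits their precision.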
